A study of Mus musculus with 45 samples.

Results

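The genes described here are 33 established targets of p53, the transcription factor encoded by Trp53, which is itself counted among them. They were the listed p53 target genes that were found by symbol among the 24333 genes of a deposited table of gene scores, and all 33 are accounted for below. A gene score summarizes the open chromatin at a gene in one nucleus, so it measures accessibility of the locus and not the amount of RNA. The nuclei came from Ter119+ erythroblasts, the red-cell precursors of the mouse, and were profiled with a 10x Genomics multiome kit, which reads open chromatin (ATAC) and RNA from the same nucleus. The series holds 45 samples in all, and 6 ATAC libraries entered the values given here, while the RNA of these nuclei was not analysed here. The WT group was 3 libraries from mice wild type for Stag2 (WT replicates 1 to 3), and the KO group was 3 libraries from mice in which Stag2 was deleted (KO replicates 1 to 3). Stag2 is one of the interchangeable subunits of cohesin, which holds chromatin in loops. Both groups were collected when 6 to 8 weeks had passed since the final pIpC dose, pIpC being an inducer of interferon that is used to switch on Cre from an interferon-responsive promoter. The sources used here did not name the Cre line, the age or sex of the mice, or whether the libraries of a group came from separate mice, so the p-values below measure only the spread between these libraries, which may be technical.

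p53 is held at a low level by Mdm2, a ubiquitin ligase that p53 itself switches on, and DNA damage or faulty ribosome assembly frees p53 from it. Freed p53 binds a pair of short half-sites near its target genes and raises genes that stop the cell cycle, chiefly Cdkn1a, that trigger cell death, such as Bax and Bbc3, and that act in DNA repair and metabolism. Red-cell precursors are known to be sensitive to p53, and activation of p53 lies behind the anaemia of several ribosome disorders.

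Promoters of 25 of the 33 genes were matched in RefSeq (GRCm38.p6), each from 250 bases before to 50 bases after the annotated start. The p53 half-site consensus, a motif of 10 bases, was searched on both strands and lay in 9 of these 25 promoters (36.0%), against 2745 of 32851 promoters of the same length (8.36%). Overlapping matches were counted once per promoter. Half-sites lay in the promoters of Trp53, Mdm2, Ccng1, Cdkn1a, Gadd45a, Ckap2, Bax, Ei24 and Aen. Only Cdkn1a, with a spacing of 12 bases, had a pair of half-sites at most 13 bases apart, which 24 of all promoters had (0.0731%). The erythroid GATA motif AGATAA, also searched on both strands, lay in none of the 25 promoters, against 11.2% of all promoters, and TGATAA lay in 1 (Plk3), against 9.05%. A match is a run of letters and not evidence of binding, and a half-site that departs from the consensus by any base was not counted. The promoters of 4 genes on which the results turn are printed 5′ to 3′ on the strand of the gene, with p53 half-sites in capitals. The first line is Cdkn1a, which has the pair, the second is Mdm2, which has 1 half-site, and Phlda3 and Plk2 have none in this window.
Cdkn1a promoter (chr17:29090729-29091028, plus strand): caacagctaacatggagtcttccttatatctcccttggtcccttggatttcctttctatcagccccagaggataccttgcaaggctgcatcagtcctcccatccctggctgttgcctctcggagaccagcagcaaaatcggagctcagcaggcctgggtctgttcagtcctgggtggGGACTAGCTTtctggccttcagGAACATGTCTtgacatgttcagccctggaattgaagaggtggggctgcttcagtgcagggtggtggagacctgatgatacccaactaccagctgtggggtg
Mdm2 promoter (chr10:117710709-117711008, minus strand): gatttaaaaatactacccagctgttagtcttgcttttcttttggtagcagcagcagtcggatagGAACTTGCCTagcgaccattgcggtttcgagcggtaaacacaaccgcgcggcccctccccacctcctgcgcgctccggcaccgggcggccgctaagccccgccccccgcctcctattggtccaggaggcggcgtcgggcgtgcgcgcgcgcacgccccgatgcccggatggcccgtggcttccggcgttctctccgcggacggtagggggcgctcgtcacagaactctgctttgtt
Phlda3 promoter (chr1:135765835-135766134, plus strand): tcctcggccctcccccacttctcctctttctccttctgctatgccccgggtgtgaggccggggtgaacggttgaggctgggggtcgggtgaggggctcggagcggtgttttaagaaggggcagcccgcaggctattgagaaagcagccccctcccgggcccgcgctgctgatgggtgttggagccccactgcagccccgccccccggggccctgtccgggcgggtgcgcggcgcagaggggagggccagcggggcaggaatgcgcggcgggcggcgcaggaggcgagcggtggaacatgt
Plk2 promoter (chr13:110394794-110395093, plus strand): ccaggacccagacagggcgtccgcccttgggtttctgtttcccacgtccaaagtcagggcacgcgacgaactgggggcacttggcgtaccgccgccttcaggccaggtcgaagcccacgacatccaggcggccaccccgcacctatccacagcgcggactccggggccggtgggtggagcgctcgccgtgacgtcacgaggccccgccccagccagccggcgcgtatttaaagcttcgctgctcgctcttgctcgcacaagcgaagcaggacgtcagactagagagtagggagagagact

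The WT libraries held 5819 to 6990 nuclei and the KO libraries 4617 to 4925, with 46782673 to 66286151 ATAC fragments per library. The median percentage of fragments in peaks was 62.2 to 64.7 in WT and 57.4 to 59.9 in KO. Of 14 erythroid marker genes, 12 were lower in KO by the same test as below (26.7% of all genes with a mean score of 30 or more), and their summed score was 3006 to 3288 in WT and 2605 to 2859 in KO. Most markers of other cell types had a mean score under 30, a level at which 42.8% of all genes were higher in KO and 1.88% lower. By the test 5 of 8 stem and progenitor markers were higher (sums of 76.9 to 95.9 in WT and 117 to 143 in KO), 5 of 9 myeloid (205 to 245 and 246 to 271) and 3 of 5 lymphoid ones (84.1 to 90.4 and 97.4 to 105). Of 4 macrophage markers 0 passed (220 to 241 and 229 to 240), and of 6 megakaryocyte markers 2 were higher and 2 lower (276 to 307 and 313 to 325), while no mast cell and basophil marker reached the minimum score. Each sum covers all markers of a type, tested or not (11 myeloid, 8 lymphoid, 7 macrophage and 7 megakaryocyte). Single genes made up much of some sums, with means of 205 in WT and 198 in KO for Cd68 (macrophage) and 139 and 148 for Cebpe (myeloid). No marker was at 0, and the part of these values in the results below was not tested. The score of Stag2 was 64.2, 65.7 and 65.9 in WT and 61.0, 65.1 and 62.4 in KO, a difference that did not pass the test (limma, adjusted p = 0.348), and since a gene score can count fragments outside a deleted exon, it does not check the labels.

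Cdkn1a was the p53 target with the largest difference between the genotypes, and a few further targets followed it in the same direction. p53's own locus and the main death genes Bax and Bbc3 did not pass the test, but with other scalings Bax passed as lower and Bbc3 as higher. For each gene the mean score of the nuclei in a library was scaled so that all genes of a library sum to 1000000, and log2 (score + 1) was compared between 3 KO and 3 WT libraries with limma. Genes with a mean score of at least 5 were tested and an adjusted p under 0.05 was called. Of the 33 targets 31 were tested, and Tnfrsf10b and Eda2r fell under the minimum. In all Ter119+ nuclei 12 of the 31 (38.7%) passed, 8 higher in KO and 4 lower, against 43.3% of all 17682 genes tested (29.1% higher and 14.2% lower). The share of p53 targets that differed was therefore close to that of any gene. The balance of directions turned with the scaling: with libraries centred on the median of all genes, 6 targets were higher and 12 lower, and 35.4% of the called genes were higher in place of 67.1%. The share of all genes that passed with that centring is given neither here nor for the classes below. These counts are therefore not read as a result about the targets. Without that centring the median difference of the targets was -0.01 on the log2 scale, and that of all genes was 0.10. The libraries of the groups stood fully apart for 15 of the 31, against 55.4% of all genes. In 9 of them every KO library was above (36.1% of all genes) and in 6 below (19.3%).

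**Figure D1:**
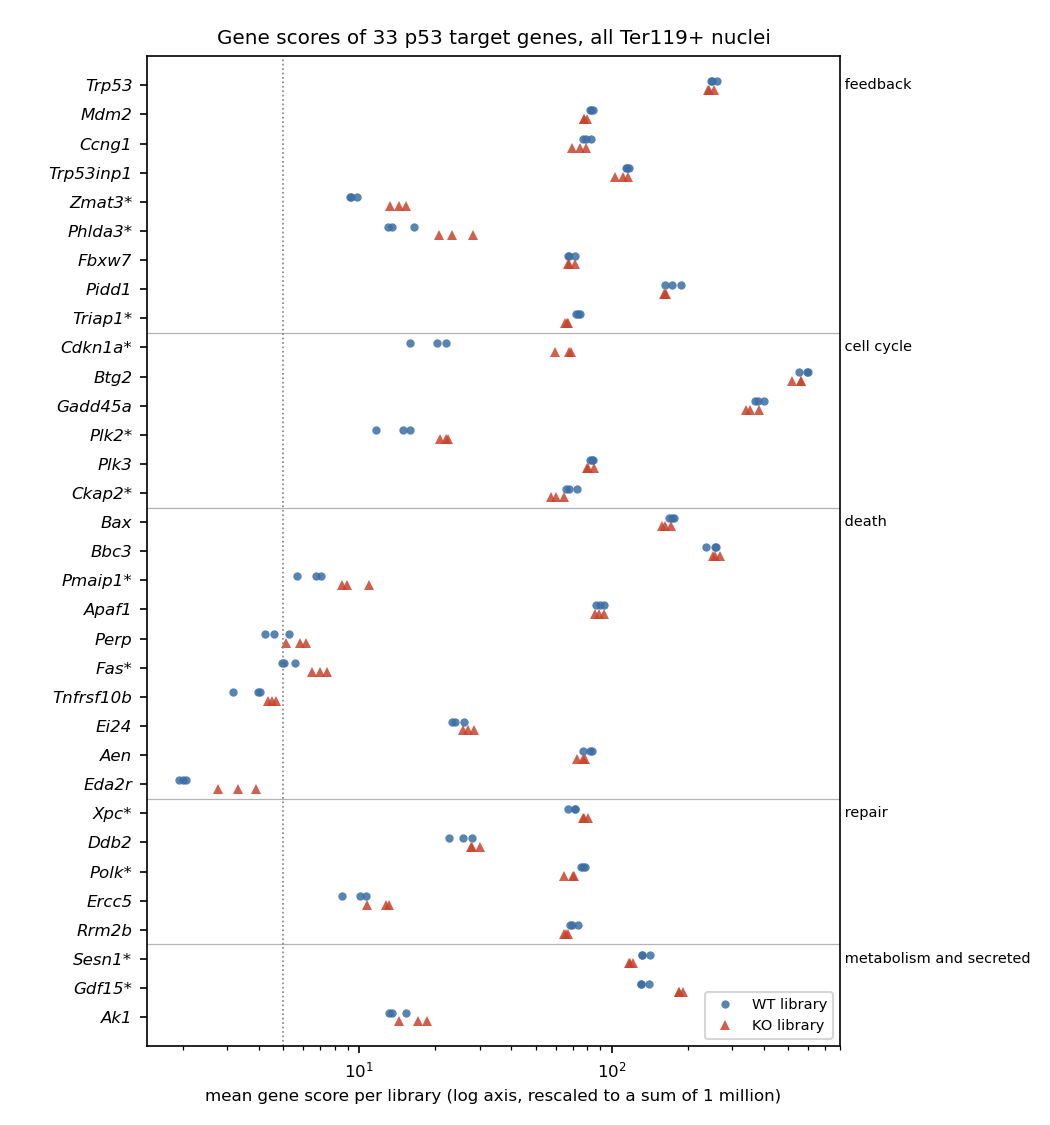
Gene scores of p53 targets in the 3 WT and 3 KO libraries, 1 point per library on a log scale; asterisks mark targets past the threshold and the dotted line the minimum mean score of 5. Cdkn1a stands at 15.8 to 22.1 in WT and 59.3 to 68.8 in KO, with no overlap, while the Trp53 points of both genotypes lie between 241 and 260.

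Among p53 and the genes of its feedback, the locus of p53 itself did not pass the test, and of its targets Zmat3 and Phlda3 were higher and Triap1 was lower. Trp53 (chr11:69580359-69591873) scored 249, 248 and 260 in WT and 243, 253 and 241 in KO. The groups overlapped, and the difference was -0.04 on the log2 scale (95% interval -0.13 to 0.06, adjusted p = 0.507). Mdm2 (chr10:117688875-117710758), the ligase that degrades p53 and one of its best known targets, scored 82.8, 81.7 and 84.0 in WT and 77.5, 79.6 and 77.9 in KO. Every KO library lay below every WT library, but the difference of -0.08 did not pass (95% interval -0.17 to 0.01, adjusted p = 0.13). Zmat3 (chr3:32334792-32365665), an RNA-binding protein that controls splicing downstream of p53, scored 9.20, 9.77 and 9.25 in WT and 14.4, 13.3 and 15.3 in KO. All KO libraries were above all WT libraries, by 0.55 ± 0.11 (SE) on the log2 scale (adjusted p = 0.00065). Phlda3 (chr1:135766085-135769134), which restrains the kinase Akt, scored 13.53, 16.45 and 12.96 in WT and 28.2, 20.7 and 23.3 in KO. The groups stood apart by 0.71 ± 0.12 (adjusted p = 0.000163). Triap1 (chr5:115341247-115343552), a small survival factor induced by p53, went the other way, with 74.7, 73.2 and 72.1 in WT and 67.2, 66.4 and 65.0 in KO. It fell by 0.15 ± 0.04 without overlap (adjusted p = 0.0151), and without KO replicate 3 its adjusted p was 0.0574. The cyclin Ccng1, the p53 cofactor Trp53inp1, the ubiquitin ligase subunit Fbxw7 and the death-domain adaptor Pidd1 did not pass, with log2 differences from -0.10 to -0.003 and adjusted p of 0.0983 to 0.964.

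Of the 6 cell cycle genes, Cdkn1a and Plk2 were higher and Ckap2 was lower. Cdkn1a (chr17:29090979-29100722) encodes p21, the inhibitor of cyclin-dependent kinases through which p53 halts division. Its score was 15.8, 20.3 and 22.1 in WT and 67.7, 59.3 and 68.8 in KO, a WT mean of 19.4 ± 3.24 and a KO mean of 65.3 ± 5.19 (SD, 3 libraries each). The lowest KO library was well above the highest WT library, and the fitted difference was 1.71 ± 0.09 (95% interval 1.51 to 1.91, adjusted p = 7.36e-10), 3.27-fold on the score + 1 scale. It ranked at position 12 of all 17682 genes by difference, and genes of like mean score had a median of 0.04. Plk2 (chr13:110395044-110400844), a polo-like kinase induced by stress, scored 14.9, 15.9 and 11.7 in WT and 22.5, 22.0 and 20.9 in KO. Every KO library lay above the WT range, with a difference of 0.60 ± 0.11 (adjusted p = 0.000422). Ckap2 (chr8:22168152-22185819), a protein of the mitotic spindle, scored 65.8, 67.5 and 72.6 in WT and 57.6, 60.1 and 64.7 in KO. It fell by 0.17 ± 0.05 without overlap (adjusted p = 0.0169), with adjusted p of 0.0722 without WT replicate 3 and 0.0801 without KO replicate 1. The antiproliferative gene Btg2, the growth-arrest gene Gadd45a and the polo-like kinase Plk3 did not pass (log2 differences -0.09 to -0.03, adjusted p 0.183 to 0.597).

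In the death group 2 of the 8 tested genes were higher and none was lower, a share close to the 29.1% of all genes that were higher. Bax (chr7:45461695-45466898), the pore-forming effector of mitochondrial death, scored 173, 169 and 176 in WT and 159, 171 and 162 in KO, with overlapping groups and a difference of -0.07 (adjusted p = 0.175). Bbc3, which encodes Puma, scored 236, 260 and 257 in WT and 251, 257 and 268 in KO, which also overlap (0.05, adjusted p = 0.451). The 2 that passed had mean scores near the minimum of 5. Pmaip1 (chr18:66458604-66465558), which encodes Noxa, a sensitizer of the same pathway, scored 5.68, 7.02 and 6.76 in WT and 10.9, 8.57 and 8.95 in KO (0.48 ± 0.12, adjusted p = 0.00473). Fas (chr19:34290659-34327770), a death receptor at the cell surface, scored 4.96, 5.55 and 5.04 in WT and 6.497, 7.44 and 6.96 in KO (0.36 ± 0.11, adjusted p = 0.0128). All KO libraries exceeded all WT libraries for both. The call of Fas was lost without WT replicate 1 (adjusted p = 0.0538) or KO replicate 2 (adjusted p = 0.0687), and in nuclei matched on class and fragments its adjusted p was 0.0644. The apoptosome scaffold Apaf1, the membrane protein Perp, Ei24 and the nuclease Aen had differences of -0.09 to 0.23 and adjusted p of 0.102 to 0.805. The receptors Tnfrsf10b (3.97, 4.04 and 3.16 in WT, 4.34, 4.69 and 4.53 in KO) and Eda2r (1.92, 2.05 and 1.99 in WT, 3.29, 2.77 and 3.88 in KO) were too low to be tested.

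The repair genes were divided. Xpc (chr6:91489305-91515888), which recognizes damage for nucleotide excision repair, scored 67.1, 71.2 and 71.8 in WT and 76.8, 80.6 and 77.8 in KO. It was higher in every KO library, by 0.16 ± 0.05 (adjusted p = 0.0103), but by 0.02 when libraries were centred on the median of all genes (adjusted p = 0.872). Polk (chr13:96480689-96542485), a DNA polymerase that copies past damaged bases, scored 76.7, 75.8 and 78.4 in WT and 64.5, 70.1 and 71.1 in KO. It fell by 0.17 ± 0.05 without overlap (adjusted p = 0.0111), and without KO replicate 1 its adjusted p was 0.0705. The other 3 did not pass: the damage sensor Ddb2 overlapped between groups (0.17, adjusted p = 0.116), the nuclease Ercc5 was above in all KO libraries (0.30, adjusted p = 0.0515), and the ribonucleotide reductase subunit Rrm2b was below in all of them (-0.09, adjusted p = 0.111).

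Of the metabolic and secreted targets, Gdf15 rose and Sesn1 fell. Gdf15 (chr8:70629394-70631635), a secreted stress cytokine that maturing erythroblasts also make, scored 131, 131 and 140 in WT and 184, 184 and 192 in KO. The groups were well apart, by 0.48 ± 0.04 (95% interval 0.39 to 0.57, adjusted p = 2.36e-07), 1.39-fold on the score + 1 scale. Sesn1 (chr10:41810574-41908436), a sestrin that curbs growth signalling through mTORC1, scored 142, 132 and 132 in WT and 117, 118 and 121 in KO. It fell by 0.19 ± 0.04, with no overlap (adjusted p = 0.00259). The adenylate kinase Ak1 overlapped between the groups (0.24, adjusted p = 0.0928).

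Other scalings moved some of these values in either direction. With quantile normalization Zmat3 was at 0.28 (adjusted p = 0.0215), Phlda3 at 0.47 (adjusted p = 0.00165) and Plk2 at 0.34 (adjusted p = 0.00704), and with cyclic loess Sesn1 was at -0.12 (adjusted p = 0.0418). Pmaip1 (0.20, adjusted p = 0.106), Fas (0.10, adjusted p = 0.455), Ckap2 (-0.15, adjusted p = 0.0601) and Polk (-0.13, adjusted p = 0.0586) were no longer past the threshold with quantile normalization, nor Triap1 with cyclic loess (-0.10, adjusted p = 0.0717). In all Ter119+ nuclei, weighting nuclei by their fragments ended the calls of Plk2 (0.52, adjusted p = 0.0525), Triap1 (-0.11), Ckap2 (-0.13), Pmaip1 (0.41), Fas (0.26), Xpc (0.12) and Polk (-0.16). The adjusted p was 0.1 to 0.225 for those other than Plk2. Cdkn1a was at 1.61 with quantile normalization (adjusted p = 9.56e-07). Gdf15 was at 0.54 with quantile normalization (adjusted p = 1.79e-06), 0.33 with median centring (adjusted p = 0.00206) and 0.40 with fragment weights. Median centring moved the lower calls further from 0, to -0.33 for Sesn1, -0.32 for Ckap2, -0.31 for Polk and -0.29 for Triap1. It also made lower calls of Mdm2 (-0.225, adjusted p = 0.0108), Bax (-0.218, adjusted p = 0.0383), Ccng1, Trp53inp1, Pidd1, Plk3, Aen and Rrm2b. These added calls were not compared with those of all genes at that scaling. Quantile normalization made a higher call of Bbc3 (adjusted p = 0.0427), while Trp53 did not pass with any scaling.

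**Figure D2:**
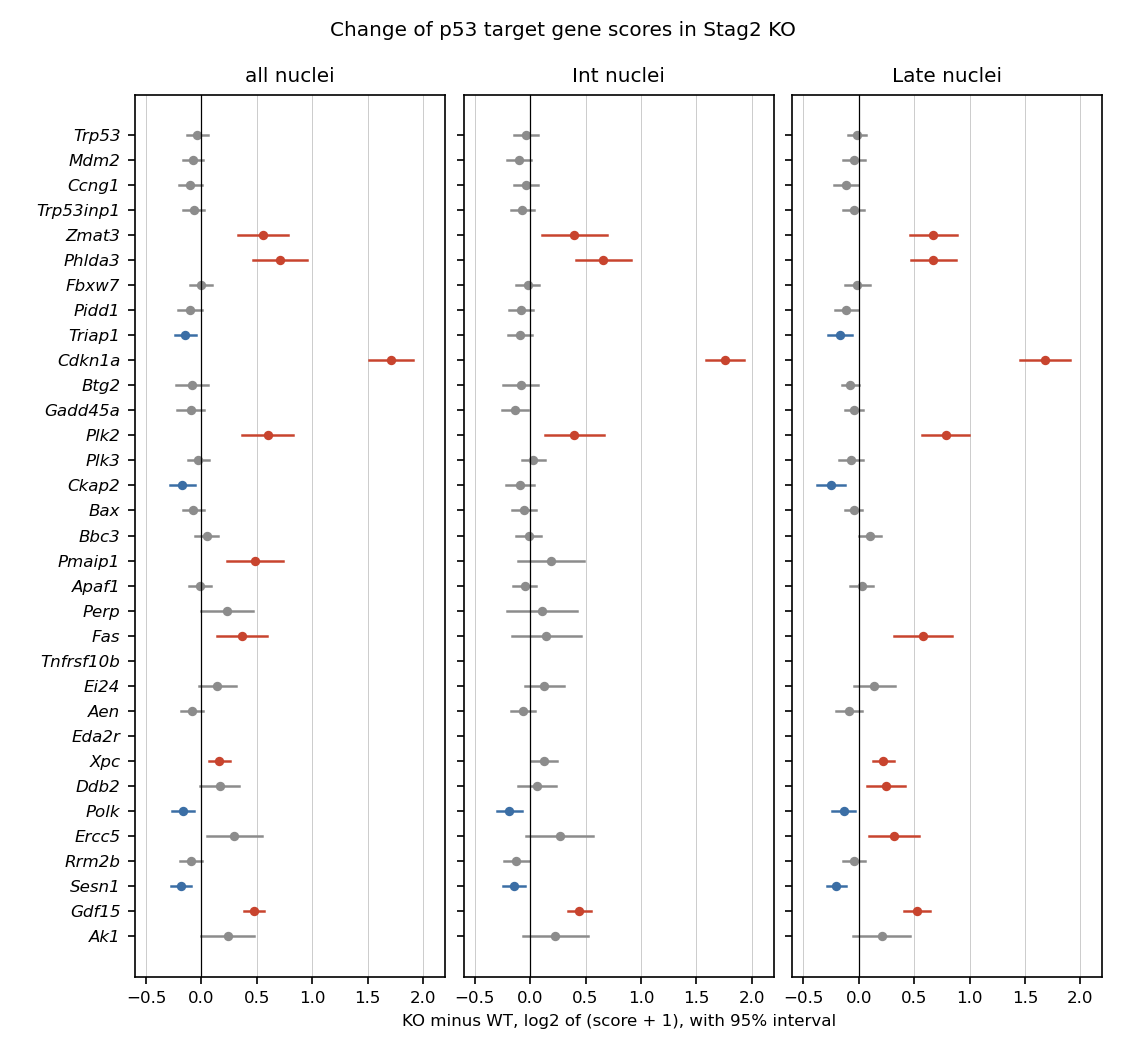
Difference in log2 (score + 1) between KO and WT for each tested p53 target in all, Int and Late nuclei, with bars for the 95% interval; red and blue mark targets past the threshold as higher and lower, grey the rest. Cdkn1a stands at 1.71, 1.76 and 1.68, ahead of every other target shown, and the interval of Trp53 spans 0 in each panel.

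A low score went with a positive difference across the whole table, so the targets were also read against genes of like level. Among genes with a mean score under 30, 42.8% were higher in KO and 1.88% lower, and among those of 30 or more 15.3% were higher and 26.7% lower. The 10 tested targets under 30 (means 5.197 to 27.05) included 5 that were higher and none that was lower. The 21 of 30 or more included 3 that were higher (Cdkn1a, Xpc and Gdf15) and 4 that were lower. Cdkn1a, with a WT mean of 19.4 and a KO mean of 65.3, was placed there, and in its bin of like genes, only through its KO libraries. All genes were then put into 10 equal bins by mean score, and 15 of the 31 targets had a difference above the median of their bin. Cdkn1a stood at percentile 99.8 of its bin, Gdf15 at percentile 99.4 and Phlda3 at percentile 95.3. Zmat3 was at percentile 91.2, Plk2 at 89.4, Pmaip1 at 89.9, Xpc at 89.2 and Fas at 77.6. At the other end Sesn1 stood at percentile 13.6, Ckap2 at 16.3, Polk at 19.9 and Triap1 at 24.4, while Mdm2 was at 45.5, Bax at 49.0 and Trp53 at 64.4. The called targets at low level thus lay less far from genes of like level than their differences alone show, which for Fas came to 0.11 above its bin median. Phlda3, Gdf15 and Pmaip1 also reached their bins, which start at 18.77, 135.5 and 6.591, only through KO. Ckap2 fell into its bin, which ends at 65.06, only through KO as well, so the percentiles of these targets are not independent of their differences.

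**Figure D3:**
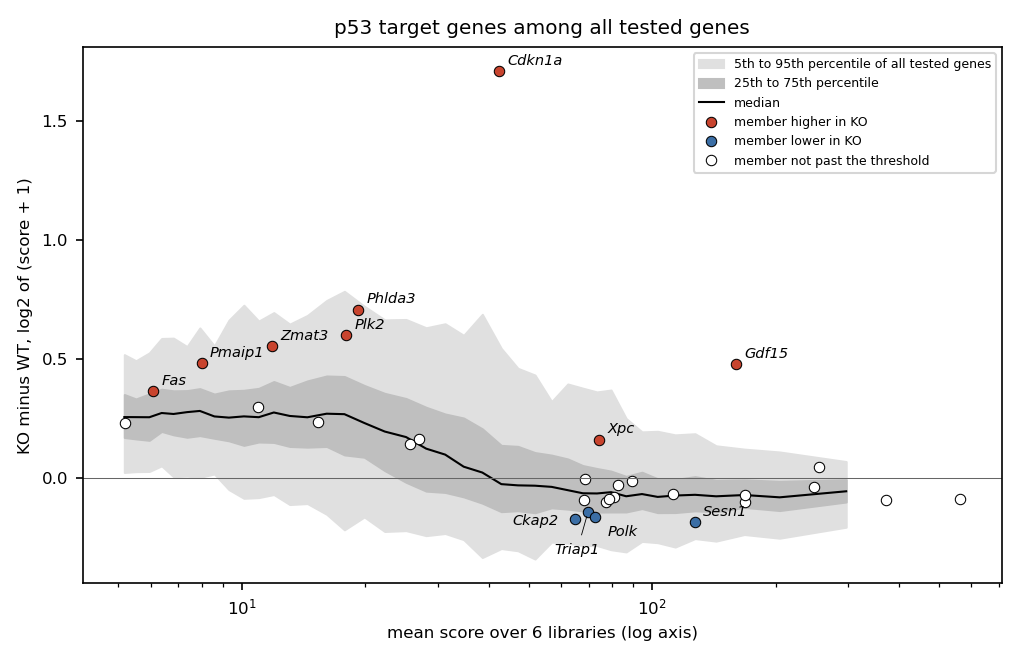
Difference in log2 (score + 1) between KO and WT against mean score (log axis) for the tested p53 targets, drawn over the median (line) and the 25th to 75th and 5th to 95th percentile bands of all tested genes of like score; red, blue and white circles are targets higher, lower and not past the threshold. The median line is positive at low scores and slightly negative at high ones, and Cdkn1a at 1.71 and Gdf15 at 0.48 lie above the wider band.

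The higher mean score of Cdkn1a came with more nuclei that had any score there and with more score in those nuclei. The share of nuclei with a Cdkn1a score above 0 was 12.4%, 16.5% and 13.7% in WT and 40.5%, 34.0% and 39.6% in KO. In nuclei matched between libraries on class and fragment number (3929 per library, median fragments 7540 to 7598) the shares were 12.8% to 15.1% in WT and 34.0% to 37.1% in KO. Among the matched nuclei above 0 the mean score per nucleus, on the deposited scale, was 1.32, 1.34 and 1.46 in WT and 1.92, 1.75 and 1.87 in KO. Gdf15 was above 0 in 50.5%, 51.2% and 54.5% of matched WT nuclei and in 62.5%, 62.1% and 62.7% of matched KO nuclei. Phlda3 was above 0 in 15.7%, 17.0% and 15.9% of WT and 23.5%, 21.3% and 21.7% of KO nuclei. For Trp53 the shares were 77.9% to 79.2% of matched WT and 77.0% to 77.8% of matched KO nuclei, a far smaller gap in the other direction. These shares were not compared with those of all genes.

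The authors assigned nuclei to an intermediate (Int) and a late (Late) class, and both were tested. Late nuclei were 65.9%, 51.9% and 42.5% of WT replicates 1 to 3 and 44.8%, 55.2% and 50.9% of KO replicates 1 to 3. The values for all Ter119+ nuclei pool the classes in these unlike shares, and the part of the mix in them was not tested. In Int nuclei 7 of 31 targets passed (22.6%), 5 higher and 2 lower, against 19.8% of 19465 genes (12.7% higher and 7.1% lower). The libraries stood fully apart for 14 (37.3% of all genes), with KO above in 8 (22.8%) and below in 6 (14.4%). With median centring 3 targets were higher and 7 lower in Int, and 24.4% of the called genes were higher. In Late nuclei 13 of 29 passed (44.8%), 9 higher and 4 lower, against 51.4% of 15886 genes (32.9% higher and 18.5% lower). Here 15 stood fully apart (59.5% of all genes), with KO above in 9 (36.8%) and below in 6 (22.7%). Median centring gave 8 higher and 9 lower in Late, and 47.9% of the called genes were higher. Cdkn1a scored 17.6, 22.4 and 23.6 in WT and 73.2, 72.2 and 76.1 in KO Int nuclei, and 14.7, 17.1 and 19.99 in WT and 61.7, 48.9 and 61.8 in KO Late nuclei. It was thus about as far apart in both classes, by 1.76 ± 0.08 in Int (adjusted p = 3.22e-14) and 1.68 ± 0.11 in Late (adjusted p = 6.08e-08). The difference between the classes was -0.08 (95% interval -0.28 to 0.11). Zmat3, Phlda3, Plk2 and Gdf15 were also higher in both classes, and Polk and Sesn1 lower in both. Plk2 differed by 0.40 in Int (adjusted p = 0.0289) and 0.78 in Late (adjusted p = 2.74e-05), and Gdf15 by 0.44 (adjusted p = 3.13e-07) and 0.53 (adjusted p = 5.33e-06). In Late nuclei Fas (0.58, adjusted p = 0.00157), Xpc (0.22, adjusted p = 0.00127), Ddb2 (0.24, adjusted p = 0.0192) and Ercc5 (0.32, adjusted p = 0.0202) were past the threshold as higher too. Fas reached the minimum score in Late nuclei only through KO, since its Late scores were 4.27, 3.65 and 4.002 in WT and 5.63, 7.52 and 6.25 in KO, so its test there is not independent of the filter. In Int nuclei neither Fas (0.14, adjusted p = 0.542) nor Pmaip1 (0.19, adjusted p = 0.392) passed, and Pmaip1 fell under the minimum in Late. Ckap2 (-0.25, adjusted p = 0.00263) and Triap1 (-0.17, adjusted p = 0.0109) were past it as lower in Late. Calls lost when 1 library was left out were, in Int, Zmat3 (WT replicate 1 or any KO replicate, adjusted p 0.0862 to 0.219), Plk2 (WT replicate 3 or any KO replicate, 0.0598 to 0.078, with a difference of 0.22 without WT replicate 3), Polk (KO replicate 1 or 2, 0.0549 to 0.0584) and Sesn1 (WT replicate 1 or 3, KO replicate 1 or 2, 0.0644 to 0.129). In Late they were Ddb2 (WT replicate 1 or KO replicate 1, 0.0801), Polk (WT replicate 2 or 3, KO replicate 1, 0.0723 to 0.149) and Ercc5 (WT replicate 2 or 3, KO replicate 3, 0.0529 to 0.0893). Median centring left Gdf15 at 0.27 in Int (adjusted p = 0.0594). With quantile normalization Late values were 0.19 for Fas (adjusted p = 0.238), 0.07 for Ddb2 (adjusted p = 0.502), -0.0021 for Ercc5 (adjusted p = 0.99), -0.09 for Polk (adjusted p = 0.21), 0.36 for Zmat3 (adjusted p = 0.0112) and 0.39 for Phlda3 (adjusted p = 0.00473). Triap1 was at -0.11 in Late with cyclic loess (adjusted p = 0.082). In Int quantile normalization left Zmat3 at 0.22 (adjusted p = 0.101), Plk2 at 0.19 (adjusted p = 0.154) and Sesn1 at -0.09 (adjusted p = 0.123). Median fragments per Int nucleus were 10121 to 12877 in WT libraries and 13911 to 14998 in KO libraries. In nuclei matched on class and fragments, Zmat3 in Int (0.30, adjusted p = 0.115) no longer passed. Nor did Polk (-0.12, adjusted p = 0.0815) and Triap1 (-0.12, adjusted p = 0.0951) in Late. In as many nuclei drawn at random, Zmat3 in Int did not pass either (0.37, adjusted p = 0.0994). The same held for Sesn1 in Int (-0.14, adjusted p = 0.0586) and Ddb2 in Late (0.22, adjusted p = 0.0597). With nuclei weighted by fragments, no Int call was lost, and in Late only that of Polk (-0.115, adjusted p = 0.0503). Plk2 was then at 0.41 in Int (adjusted p = 0.0168) and 0.81 in Late (adjusted p = 1.31e-05). A direct test of whether the KO difference itself differed between the classes, on the within-library difference, passed for 0 of 29 targets and for 6.41% of 15873 genes. The nearest was Plk2 (0.38, unadjusted p = 0.00871, adjusted p = 0.0944), and 4 targets had an unadjusted p under 0.05. Among those 4 was Fas, which reached the minimum in Late only through KO. Without WT replicate 3 both Plk2 (adjusted p = 0.0111) and Ckap2 (adjusted p = 0.00829) passed. Neither count was set beside the share of all genes at the same cut and setting. They are therefore not read as a result about the targets.

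Within each library the targets also differed between Int and Late nuclei, and this is given as a description. Median fragments per nucleus were 10121 to 14998 in Int and 5693 to 6812 in Late nuclei, and the part of depth in these values was not tested. In all 6 libraries 11 of the 33 targets were lower in Late, among them Phlda3, Cdkn1a, Plk2, Pmaip1, Perp, Ddb2 and Ckap2, and 14 were higher, among them Gadd45a, Ccng1, Bax, Sesn1 and Gdf15. Of the 29 targets tested in both classes 8 were lower and 14 higher in all 6, against 41.4% and 29.1% of 15873 genes tested in both. Cdkn1a was lower in Late by a mean log2 difference of -0.28 in WT and -0.36 in KO, a smaller gap than that between the genotypes. Phlda3 had -0.68 in WT and -0.67 in KO, and Gadd45a 0.47 and 0.57.

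The deposited clusters divided the nuclei almost entirely by genotype. In WT the nuclei of cluster C3 were the most numerous (2847 to 4331 per library), and in KO those of cluster C2 (2134 to 2490), and clusters C6, C9 and C11 were nearly all WT while C8 and C10 were nearly all KO. A value in such a cluster therefore cannot be told apart from the genotype. Cdkn1a was high in the 4 clusters with at least 50 nuclei in each KO library, with means over libraries of 76.8 in C5, 76.4 in C8, 70.5 in C10 and 57.4 in C2. In WT its means were 23.1 in C9, 22.3 in C5, 21.0 in C11, 18.0 in C6, 17.4 in C3 and 12.96 in C2. The lowest KO value in a library was 48.2 and the highest WT value in these clusters 24.4, so the genotypes did not overlap. Some clusters held nuclei of both genotypes. In C5 (143 to 261 WT and 528 to 598 KO nuclei per library) Cdkn1a was 21.3, 22.2 and 23.5 in WT and 73.7, 74.3 and 82.4 in KO, a difference of 1.74 (adjusted p = 0.00034). C2 held 58 to 68 WT nuclei per library, with 10.7, 13.6 and 14.6 in WT and 62.5, 48.2 and 61.3 in KO. In C7 Cdkn1a was 67.2 in KO replicate 1 and 23.1 and 37.6 in WT replicates 1 and 2, the libraries with at least 50 nuclei there. C7 was close in size to the Early class described at the end (326 and 310 nuclei in KO replicate 1). The values of C7 and of the Early class may therefore rest on largely the same nuclei. Differences between clusters were not tested.

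Other targets were less even within the shared cluster C5, where Cdkn1a was the 1 target of 31 past the threshold, against 171 of 19454 genes tested. Gdf15 was 123, 121 and 128 in WT and 154, 146 and 184 in KO there, without overlap (0.37, adjusted p = 0.179). Phlda3 was 17.8, 16.1 and 10.1 in WT and 29.7, 18.4 and 22.7 in KO, also without overlap (0.64, adjusted p = 0.345). Plk2 was 36.2, 23.5 and 22.3 in WT and 21.1, 20.5 and 24.7 in KO, which overlap and lean the other way (-0.27, adjusted p = 0.666), whereas it was higher in KO over all Int nuclei. Sesn1 was at -0.09 (adjusted p = 0.797). The C5 values rest on fewer nuclei than those of whole libraries.

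**Figure D4:**
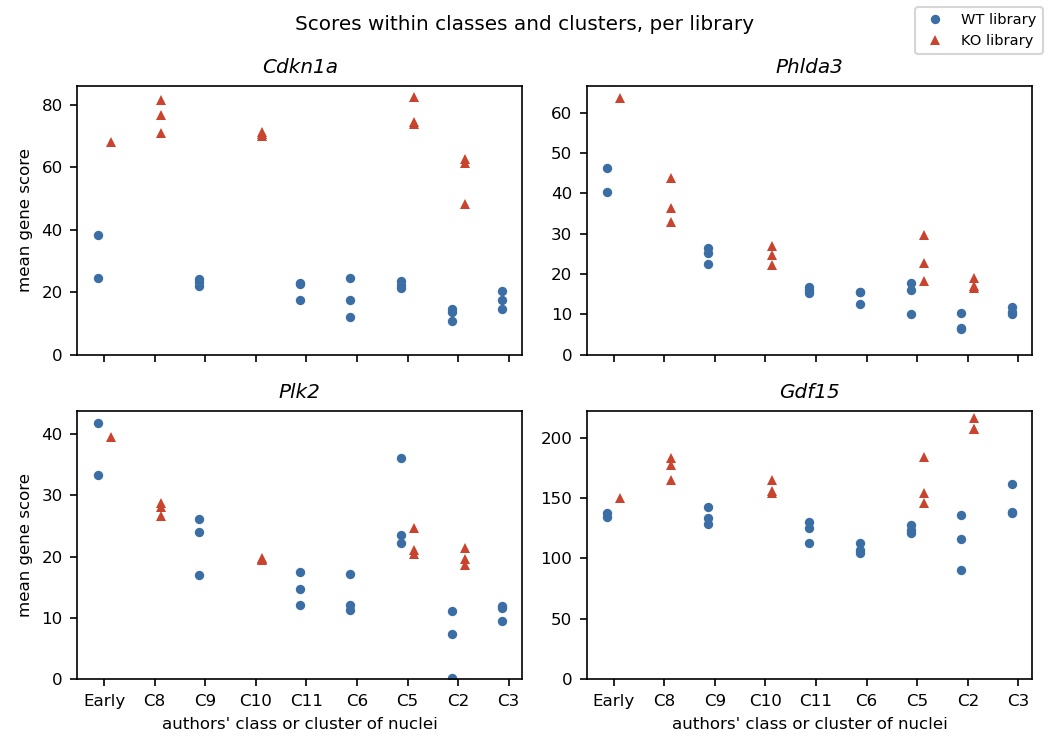
Gene scores of Cdkn1a, Gdf15, Phlda3 and Plk2 by deposited cluster and in the Early class, 1 point per library with at least 50 nuclei there. For Cdkn1a the KO points lie at 48.2 or more and the WT points of the Int and Late clusters at 24.4 or less, while the Plk2 points of both genotypes overlap in C5.

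Whether nearby genes share fragments in this score was not given in the sources used here, so the genes starting within 100 kb of a target's start were read beside it. Of all genes tested, 29.1% were higher in KO and 14.2% lower, and 42.8% of those with a mean score under 30 were higher. Near Cdkn1a 2 of 4 tested neighbours were higher in KO: Trp53cor1, the long noncoding RNA lincRNA-p21 that starts 11.9 kb away, by 0.71 (adjusted p = 6.09e-05) and Rab44, 44.1 kb away, by 0.38 (adjusted p = 0.0169). Srsf3 (-0.02, adjusted p = 0.764) and Stk38 (-0.09, adjusted p = 0.125) did not pass, and no neighbour had a difference as large as that of Cdkn1a. At Gdf15 7 of 9 neighbours were higher, and Isyna1, 37.2 kb away, had a larger difference than Gdf15 (0.79, adjusted p = 1.96e-06, with means of 29.6 in WT and 51.7 in KO). Gdf15 was thus 1 of a run of loci that were higher together. Near Phlda3 3 of 4 were higher (Csrp1 0.53, Tnni1 0.44 and Tnnt2 0.28), none by as much as Phlda3. Further from Phlda3, Kif21b (365 kb away) and Mroh3 (425 kb away) had larger differences than Phlda3, of 1.10 (adjusted p = 3.44e-09) and 1.25 (adjusted p = 9.68e-09); these genes were named after their values were seen. The start of Zmat3 lies 0.176 kb from that of 4930429B21Rik, which was higher by 0.30 (adjusted p = 0.00045). Plk2 had 1 tested neighbour, Gapt, which did not pass (0.26, adjusted p = 0.0774), and Sesn1 had 2, of which none passed. Of 8 neighbours of Triap1 4 were lower, and of 5 neighbours of Xpc 3 were higher, 2 of them by more than Xpc.

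**Figure D5:**
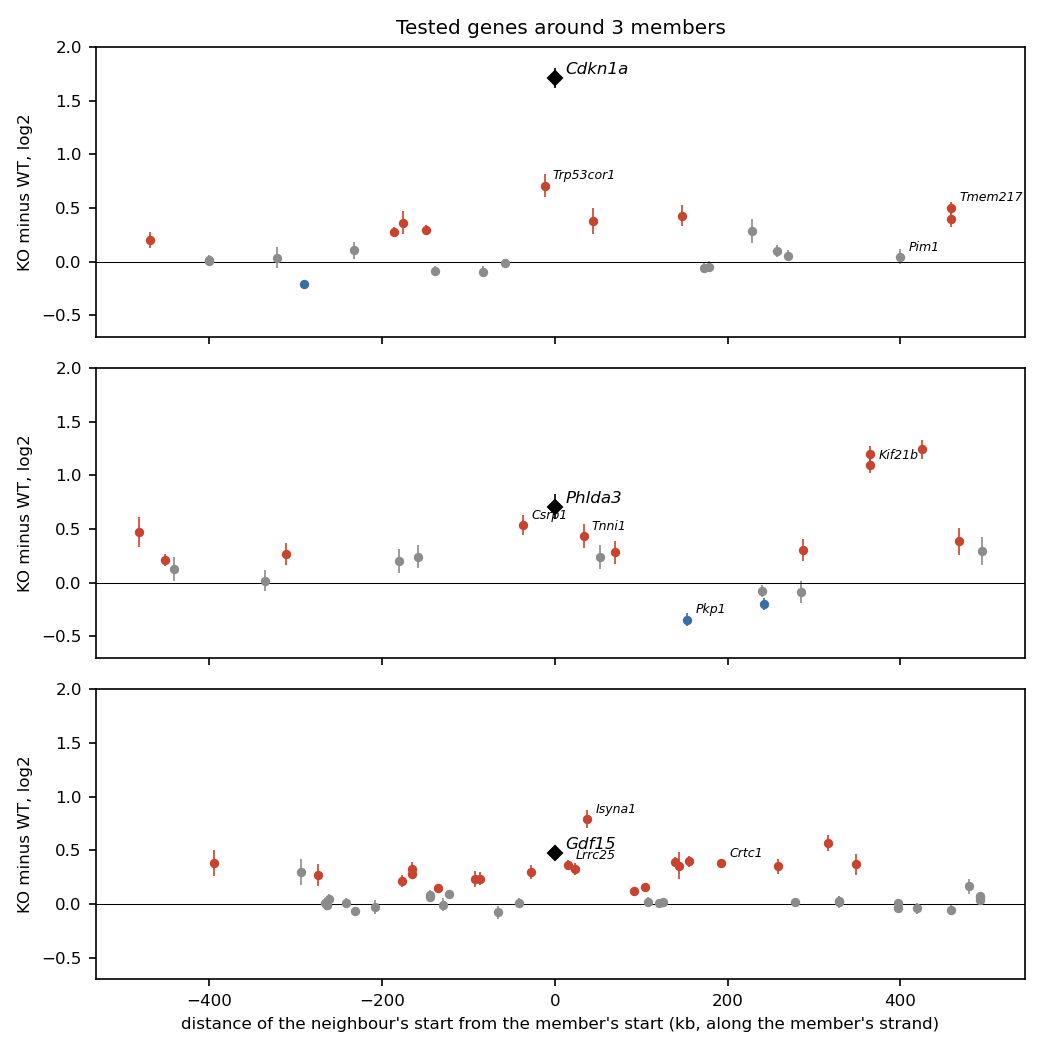
Difference in log2 (score + 1) of the tested genes within 500 kb of Cdkn1a, Phlda3 and Gdf15 (black diamonds) against the distance of their starts in kb, with bars for the SE; red and blue are genes higher and lower in KO by the test and grey are the rest. Cdkn1a at 1.71 stands above neighbours of at most 0.71, whereas Gdf15 at 0.48 has the larger Isyna1 at 0.79 beside it and Phlda3 at 0.71 has larger differences further out.

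Other genes of the pathway were counted from lists of their own in all Ter119+ nuclei, where 29.1% of all genes were higher and 14.2% lower. The shares that passed in these lists, 42.1% upstream, 6 of 15 partners and 52.4% of further targets, lay near the 43.3% of all genes. Of 19 tested genes that act upstream of p53 or on it, 1 was higher (Rpl11, a ribosomal protein that binds Mdm2, 0.12, adjusted p = 0.0434) and 7 were lower, with a median of -0.07. All but Chek1 and Trp63 had a mean score of 30 or more, a level at which 15.3% of genes were higher and 26.7% lower. The lower ones included the p53 relative Trp73 (-0.31, adjusted p = 0.000413) and the deubiquitinase Usp7 (-0.24, adjusted p = 0.000526), which stabilizes Mdm2. Mdm4, the partner of Mdm2, did not pass (0.16, adjusted p = 0.0591). Of 15 tested genes on which the targets act 2 were higher and 4 lower. Cdk4, a cyclin-dependent kinase of the G1 phase, rose from a mean of 66.1 to 95.4 (0.52, adjusted p = 3e-07), and the caspase gene Casp9 was lower (-0.18, adjusted p = 0.00666). Of 21 further p53 targets tested, 7 were higher and 4 lower, with a median close to 0 (-0.00054). The higher ones included the small GTPase Rap2b (0.65, adjusted p = 7.36e-06) and Fdxr, a mitochondrial reductase (mean 84.1 in WT, 116 in KO, a difference of 0.46, adjusted p = 2.56e-06). The lower ones included Rps27l (-0.11, adjusted p = 0.0435) and Cdip1 (-0.19, adjusted p = 0.0291).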

How the data were processed

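The deposited gene scores have the unit of a signal: per nucleus they sum to about 10000, and the authors' rule for weighting fragments near a gene was not given in the sources used here. The deposited table of nuclei gives the library, class, cluster, fragment count and doublet score of each nucleus. The submitters' processing notes name Cell Ranger and the build mm10. Coordinates are those of the deposited gene list, whose starts for the printed promoters are those of RefSeq GRCm38.p6.

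Scores of the 34073 nuclei were averaged per library with equal weight, rescaled to a sum of 1000000 and taken as log2 (score + 1). limma 3.58.1 (R 4.3.3; eBayes with trend) compared KO with WT, two-sided, over all genes with a mean of at least 5, with Benjamini-Hochberg adjustment. Whether the KO difference itself differed between Late and Int was tested on within-library differences, and Late against Int as such was not tested. Doublets were not removed in the values reported, and 1478 nuclei (4.34%) share a barcode with a nucleus of another library. Gene names were joined to scores by row order; genes with starts within 5 kb had a median profile correlation of 0.941, against 0.117 for genes 101 positions apart. The fits were also run on simulated data in which few genes were changed. Those data lack the shift with score level described above, so they do not address it. Alternatives were filters, pseudocounts, scalings, nuclei averaged, variance models, the replicate block and leaving out each library. All 33 targets are named, with values per library for those past the threshold without overlap and for Trp53, Mdm2 and Cdkn1a. The targets and lists were chosen with earlier results of these data known.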

Additional observations from a re-analysis of the deposited data

How the results depend on the processing

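Of the targets past the threshold, 5 of 12 in all nuclei (Zmat3, Phlda3, Cdkn1a, Sesn1 and Gdf15), 1 of 7 in Int nuclei (Cdkn1a) and 8 of 13 in Late nuclei were past it under every alternative in which they were tested. Zmat3 and Phlda3 (all and Late nuclei) and Plk2 (Late) were not tested with the minimum of 20, which their mean scores do not reach. Cdkn1a reached the minimum of 20 in all and Late nuclei only through its KO libraries, so that setting is no independent check of it. In all nuclei 12 targets became 7 with a minimum mean score of 20, which left fewer genes tested, 7 with cyclic loess and 5 with nuclei weighted by fragments, and 7661 genes became 4244 with that minimum and 2415 with the weights. In Int nuclei 7 targets became 4 with quantile normalization, cyclic loess or no variance trend and 1 in cluster C5, and 3858 genes became 2419 with no filter, 1921 with no trend and 171 in C5. With no filter the Int calls of Zmat3 (adjusted p = 0.0842), Plk2 (adjusted p = 0.16) and Sesn1 (adjusted p = 0.0698) were lost. Leaving out 1 library gave 3 to 7 Int targets (3 without KO replicate 1 or 2) and 2547 to 4782 genes. In Late nuclei the minimum of 20 left 8 of 13 targets and 4560 of 8161 genes. For the Late against Int difference, 0 targets became 0 to 2 and 1017 genes 309 to 2211 with 1 library left out, 206 genes with no trend, 601 with nuclei drawn at random and 35 with the trend on the mean difference. That last setting and the fit without Early nuclei (14 targets, 9073 genes) were chosen after seeing the data. The direction turned for Plk2 in C5 (Int, -0.271) and for Ercc5 with quantile normalization (Late, -0.00211). Median centring moved the median of all genes by 0.146, and by 0.176 in Int nuclei. With it 6 targets were higher and 12 lower in all nuclei, 3 and 7 in Int and 8 and 9 in Late, and the share of called genes that were higher was 35.4% in place of 67.1% (46.9% with quantile normalization and 54.0% with cyclic loess). Causes were not tested.

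The replicate numbers share only a number: same-numbered libraries had correlated deviations of -0.117, -0.273 and 0.206. With the replicate block, 12, 7, 13 and 0 targets and 7470, 4527, 7982 and 1436 genes passed in all, Int and Late nuclei and for the difference of the KO effect between the classes. Precision is limited by 3 libraries per group, and a score near the minimum rests on few fragments.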

Other observations

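Nuclei of the Early class reached at least 50 in 3 libraries and entered no class comparison of their own. Cdkn1a scored 67.9 in the 310 Early nuclei of KO replicate 1, and 24.4 and 38.3 in the 102 and 235 Early nuclei of WT replicates 1 and 2. Phlda3 scored 63.8 in the KO library and 40.4 and 46.4 in the WT libraries, which for this gene is above its level in any Int or Late cluster of the same genotype. The Early nuclei of these libraries had median fragments of 41018 to 44045.5, well above those of Int and Late nuclei. The part of depth in these scores was not tested. Trp53 scored 189 in KO replicate 1 and 190 and 201 in WT replicates 1 and 2, below its level in whole libraries. Early nuclei made up 6.38% of KO replicate 1 and 0.286% to 4.04% of the other libraries.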
